A study of Mus musculus with 4 samples.

Results

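Adipocyte genes were followed in hair follicles of mouse dorsal skin, isolated from tissue sections by laser capture microdissection, which cuts out outlined structures with a laser. A list of 8 genes was used, namely Car3, Adipoq, Lpl, Plin4, Plin1, Fabp4, Cfd and Pparg, and every probe set whose only annotated symbol was one of them was taken. This gave 11 probe sets of 6 genes, out of 22626 probe sets on the arrays other than controls. No probe set carried Plin1 or Cfd as its only symbol in the annotation used here, so both are without values. An expression filter that kept 13576 probe sets with the highest mean, or 8557 named genes, retained 9 of the 11 probe sets and 5 of the 6 genes, and the tests below cover these. The sole probe set of Pparg and the dimmer one of Lpl did not pass it.

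The study compared homozygous HrHos/HrHos mice with heterozygous +/HrHos littermates at postnatal day 14, with 2 arrays of each genotype and all animals labelled male. The mice were N1 offspring of a Hos:HR-1 father and a heterozygous F1 mother from an HR-1 by ICR cross, so the control animals also carry a copy of the mutant allele, on a mixed background. HrHos is a recessive mutation of Hr, which encodes a nuclear corepressor required for hair cycling. Each sample pooled 50 to 70 follicles from 8 µm sections. The labels do not tie an array to an animal, so p-values reflect the spread among 4 samples that could be technical. The labels of homozygous replicate 3 disagree: by title it belongs with the homozygous samples, whereas by strain it would be a heterozygote. Its source name is also that of homozygous replicate 2, so the labels do not settle whether both homozygous arrays come from separate sources. The title was followed here. Titles mark the homozygous samples HR and the heterozygous controls WT, although these controls carry a copy of the mutant allele. For the members as a set and several member probe sets, values without homozygous replicate 3, or with it counted as heterozygous, are also given. Most other results, the marker lists among them, follow the title alone.

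White adipocytes store triglyceride in a lipid droplet that perilipins coat. Lipoprotein lipase frees fatty acids from circulating lipoproteins, fatty acid binding proteins carry them inside the cell, and the nuclear receptor PPARγ, with C/EBP factors, switches on the genes of this programme. In skin, adipocytes form a layer beneath the dermis that thickens and thins with the hair cycle, and the bulbs of growing follicles reach down into it. Several of these genes are also active elsewhere: Car3 in skeletal muscle, Fabp4 in capillary endothelium and macrophages, Lpl in muscle and macrophages, and Pparg in sebocytes.

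In these follicles Car3, Adipoq and Plin4 read lower in the 2 homozygous samples than in the 2 heterozygous samples, Lpl was low in homozygous replicate 3 only, and the 4 probe sets of Fabp4 did not order the samples alike. All 5 tested genes had a log2 difference (homozygous minus heterozygous) below 0, from -1.40 for Car3 to -0.38 for Fabp4, with a median of -0.64. Without homozygous replicate 3, 4 of the 5 lay below 0 (median -0.47), and with that sample counted as heterozygous 3 of the 5 did (median -0.32). Over all 8557 genes the median was 0.01 and 48.7% lay below 0. None of the 9 tested probe sets passed limma's test, each with an adjusted p = 1. In the whole table limma called 0 of 13576 probe sets (0%) at an adjusted p under 0.05, with 140 lower (1.03%) and 172 higher (1.27%) at an unadjusted p under 0.05, and robust eBayes called 0 as well, with 123 and 167. In bulk samples of this kind, fewer adipocytes and less RNA per adipocyte cannot be told apart.

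Car3 encodes carbonic anhydrase III, a cytosolic enzyme abundant in fat and in slow muscle. Its brighter probe set, 1449434_at, had an intensity of 3959.8 in heterozygous replicate 3, 3323 in heterozygous replicate 4, 1324 in homozygous replicate 2 and 1390.4 in homozygous replicate 3. The groups stood apart by more than their own spread, since the heterozygous pair differed by 0.25 and the homozygous pair by 0.07 on the log2 scale. The log2 difference was -1.40 ± 0.40 (SE, n = 2 per group), or 2.64-fold higher in heterozygous samples, with a 95% interval of -2.28 to -0.52 that is not adjusted for the number of tests. The second Car3 probe set, 1460256_at, was dim with readings of 91.1 and 51.0 for the heterozygous pair (replicates 3 and 4) against 6.7 and 33.5 for the homozygous pair (replicates 2 and 3). Its groups did not overlap either, but the nearest samples lay 0.34 apart on the log2 scale, less than the 0.57 within the heterozygous and the 0.76 within the homozygous pair. Its difference was -1.01 ± 0.42, or -0.63 without homozygous replicate 2 and -2.09 with a pseudocount of 1. The unadjusted limma p was 0.0051 and 0.038 for the brighter and the dimmer probe set, which placed them 22nd and 217th of 13576, and both had an adjusted p = 1. Without any one sample the brighter probe set differed by -1.52 to -1.27, and with homozygous replicate 3 counted as heterozygous by -0.98.

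Adipoq encodes adiponectin, a hormone secreted almost exclusively by adipocytes. Heterozygous replicates 3 and 4 gave 523 and 388, and homozygous replicates 2 and 3 gave 248 and 234. The ranges did not overlap: the nearest samples of the groups lay 0.59 apart on the log2 scale, against 0.40 within the heterozygous and 0.08 within the homozygous pair. The log2 difference was -0.82 ± 0.44 (SE, n = 2 per group; 95% interval -1.80 to 0.15; limma adjusted p = 1). Without homozygous replicate 3 the difference was -0.79, and with that sample counted as heterozygous it was -0.50.

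Plin4 encodes perilipin 4, which coats nascent lipid droplets in adipocytes. It read 229.9 in heterozygous replicate 3, while the other 3 samples lay close together at 142 in heterozygous replicate 4, 123 in homozygous replicate 2 and 124 in homozygous replicate 3. The difference of -0.46 ± 0.40 (limma adjusted p = 1) therefore rested mostly on heterozygous replicate 3, and was -0.17 without it and -0.75 without heterozygous replicate 4. Plin4 kept its direction in every alternative run.

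The regions upstream of Adipoq and Plin4 are printed because these are the members with non-overlapping groups for which the RefSeq promoter table (GRCm38.p6) held an entry. It matched 5 of the 8 genes. Each sequence is the 250 bases before the annotated start, 5′ to 3′ on the gene's strand, with capitals at each CCAAT box on either strand.
Adipoq, chr16:23146286-23146535, plus strand: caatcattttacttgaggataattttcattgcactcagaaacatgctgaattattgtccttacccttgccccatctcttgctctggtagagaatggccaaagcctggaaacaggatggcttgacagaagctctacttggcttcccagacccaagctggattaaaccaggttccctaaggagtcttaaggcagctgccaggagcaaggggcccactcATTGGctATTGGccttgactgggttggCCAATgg
Plin4, chr17:56109783-56110032, minus strand: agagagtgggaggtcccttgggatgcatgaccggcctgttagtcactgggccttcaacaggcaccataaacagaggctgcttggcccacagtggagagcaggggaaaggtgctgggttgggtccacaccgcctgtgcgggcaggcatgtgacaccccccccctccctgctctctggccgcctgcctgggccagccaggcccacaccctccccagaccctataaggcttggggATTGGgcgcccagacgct
CCAAT occurred 3 times before Adipoq and once before Plin4. Of 32851 promoter entries of the same length, 33.8% held it. Neither region held TATAAA (12.4% of entries) or the nuclear receptor half-site AGGTCA (14% of entries), and so neither held 2 copies of that half-site spaced by 1 base (0.0335%), the element that PPARγ binds with its partner RXR. Both strands were searched. These are matches of letters and not measured binding sites.

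**Figure D1:**
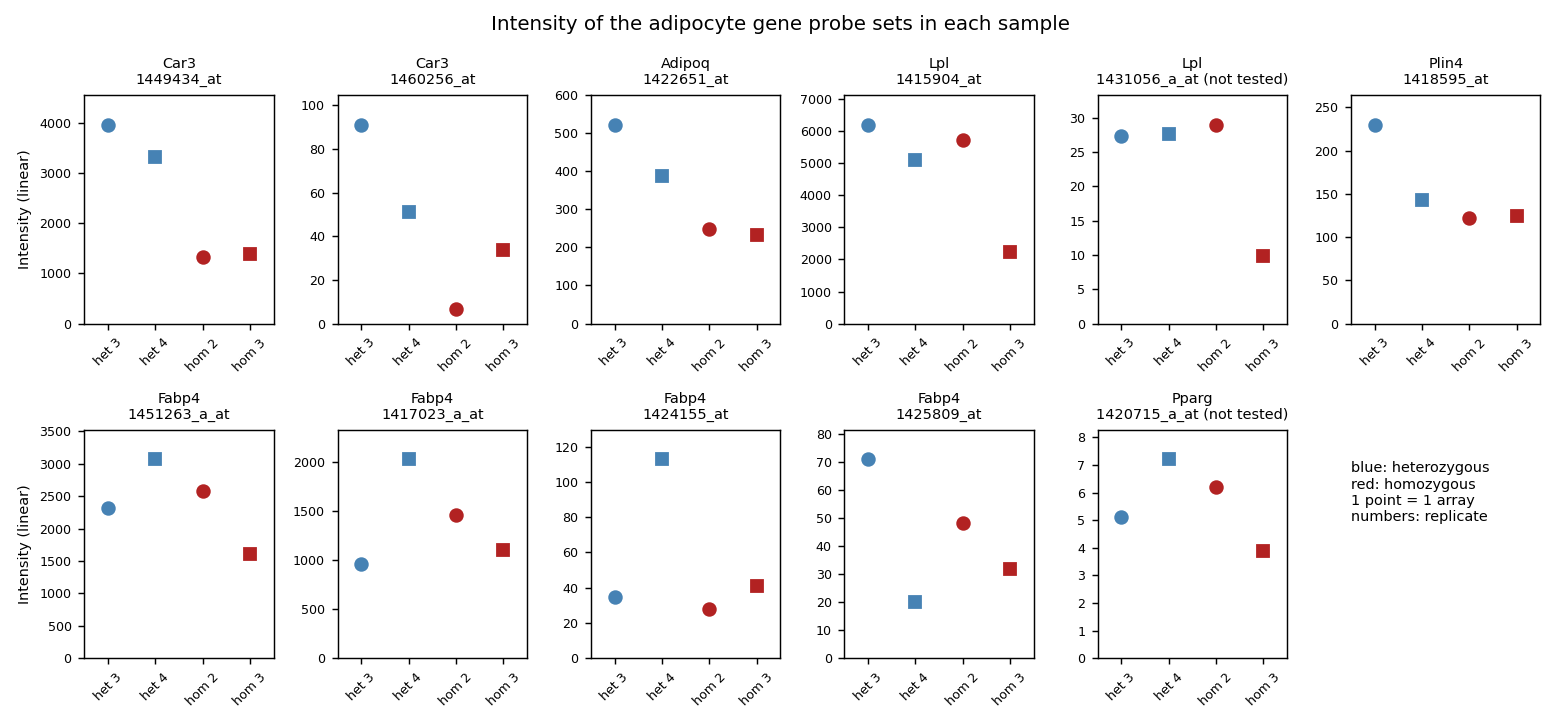
Linear intensity (y axis, from 0, own scale per panel) of each of the 11 adipocyte gene probe sets on the 4 arrays (x axis), 1 point per array, blue for heterozygous and red for homozygous. Both Car3 panels, Adipoq and Plin4 show red below blue, Lpl shows homozygous replicate 3 alone at the bottom, and the 4 Fabp4 panels differ from each other.

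Lpl encodes lipoprotein lipase. Probe set 1415904_at read 6209 and 5091 in heterozygous replicates 3 and 4, 5739 in homozygous replicate 2 and 2234 in homozygous replicate 3. Homozygous replicate 2 thus lay between the heterozygous samples and only homozygous replicate 3 was low. The dimmer probe set, 1431056_a_at, gave the same picture below the filter, with 27.3, 27.7 and 29.0 in the first 3 samples and 9.9 in homozygous replicate 3. The difference between the genotypes was -0.64 ± 0.45 (SE, n = 2 per group; 95% interval -1.63 to 0.34; limma adjusted p = 1), against 1.35 between the 2 homozygous samples. It was 0.030 without homozygous replicate 3 and 0.47 with that sample counted as heterozygous, so its direction rested on the sample whose labels disagree.

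Fabp4 encodes the adipocyte fatty acid binding protein, also called aP2. The brightest of its 4 probe sets, 1451263_a_at, gave 2315 and 3066 for heterozygous replicates 3 and 4 and 2575 and 1609 for homozygous replicates 2 and 3. The next, 1417023_a_at, read 959 and 2025 against 1459.8 and 1100.0. In both, heterozygous replicate 4 was highest and the groups overlapped, but the lowest sample was homozygous replicate 3 in the first and heterozygous replicate 3 in the second. The dim pair disagreed more openly, since 1424155_at read 34.5 and 113 against 28.0 and 41.1 and 1425809_at read 70.9 and 19.9 against 48.2 and 31.9, with the heterozygous samples in opposite order. Their log2 differences were -0.38 ± 0.42, -0.14 ± 0.49, -0.57 ± 0.44 and -0.03 ± 0.43 (SE, n = 2 per group), in the order given, and every 95% interval held 0. Single samples moved these values: 1451263_a_at was at -0.048 without homozygous replicate 3, and 1424155_at at -0.0059 without heterozygous replicate 4 and -1.13 without heterozygous replicate 3. The other 2 probe sets ranged from -0.66 to 0.39 (1417023_a_at) and from -0.52 to 0.46 (1425809_at) as each sample was left out. With homozygous replicate 3 counted as heterozygous, 3 of the 4 turned above 0, at 0.19, 0.17 and 0.20, with 1424155_at at -0.57.

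Pparg, the master regulator of adipocyte differentiation, read 5.1, 7.2, 6.2 and 3.9 on the 4 arrays in the same sample order. These values lie near the bottom of the scale, below the pseudocount of 32 that was added before taking logarithms, and this probe set was not tested. The adipocyte label of the set thus does not rest on this regulator. It rests on the 5 tested genes, of which Car3, Lpl and Fabp4 are also active in other cell types, as stated above.

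**Figure D2:**
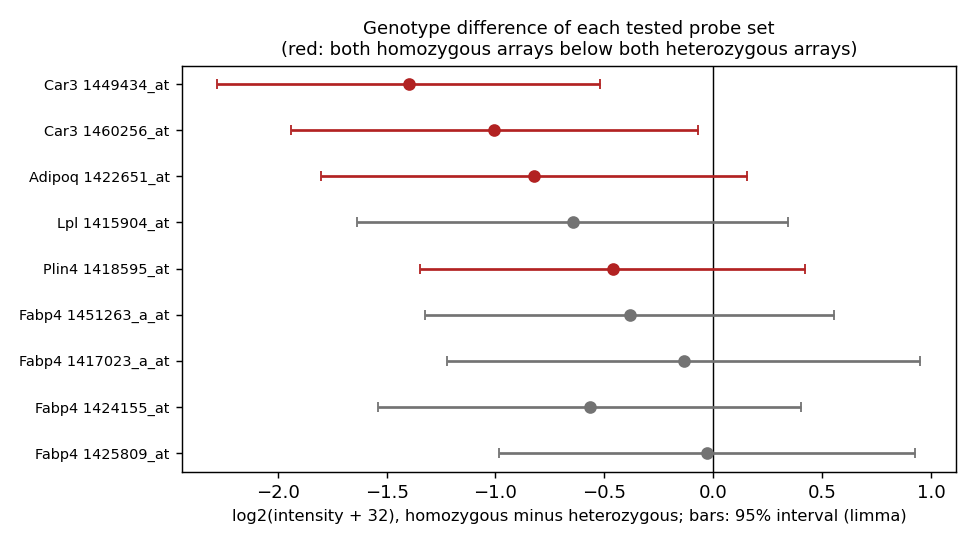
Log2 difference (x axis, homozygous minus heterozygous, n = 2 per group) of the 9 tested probe sets (y axis) with limma's 95% intervals as bars. All 9 points lie below 0, and the 2 Car3 probe sets are the ones whose intervals do not reach 0.

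Homozygous replicate 3 was the lowest of the 4 samples in 3 of the 5 tested member genes (Adipoq, Lpl and Fabp4), as it was in 20.9% of all 8557 genes. The count of non-overlapping genes can likewise be set against the rest of the arrays. Homozygous readings were under both heterozygous readings in 3 of the 5 tested member genes (Car3, Adipoq and Plin4), where 13.4% of all 8557 genes did the same. The members were listed with earlier results of these arrays known, so no test was made of this share. Without homozygous replicate 3 the same 3 genes remained, against a background of 29.6%. Leaving out homozygous replicate 2 gave 5 of 5 against 27.6%. With homozygous replicate 3 counted as heterozygous, Car3 and Plin4 remained, against 22.8%. Over the 5 genes, the median of the values centred on each gene's mean came to 0.52 and 0.21 for heterozygous replicates 3 and 4 and to -0.24 and -0.53 for homozygous replicates 2 and 3. The nearest medians of the genotypes were thus 0.45 apart, against 0.31 within the heterozygous and 0.29 within the homozygous pair.

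The members did not share one profile over the 4 samples. The root mean square distance between centred log2 profiles was 0.20 for Adipoq and Plin4 and 0.30 for Adipoq and Car3, against 0.63 for Car3 and Lpl and 0.62 for Car3 and Fabp4. Lpl and Fabp4 lay 0.37 apart. The log2 ratio of Car3 to Lpl signal, whose absolute size has no meaning across probes, was -0.64, -0.61 and -0.67 in heterozygous replicates 3 and 4 and homozygous replicate 3, and -2.09 in homozygous replicate 2. In the latter sample Car3 was low and Lpl was not.

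**Figure D3:**
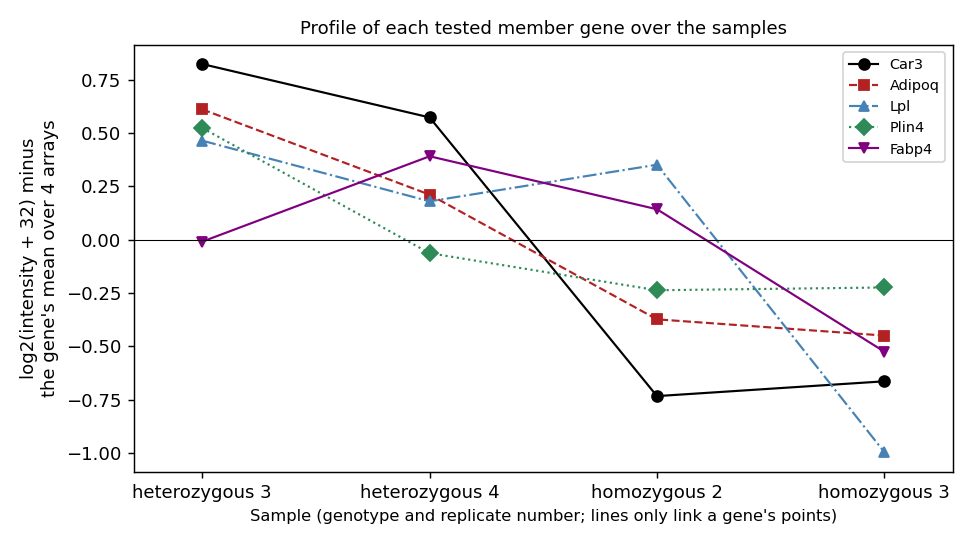
Values of log2(intensity + 32) minus the gene's own mean over the 4 arrays (y axis) for the 5 tested member genes in each sample (x axis); lines only link the points of a gene. Car3, Adipoq and Plin4 sit below their mean in both homozygous samples, whereas Lpl and Fabp4 sit above it in homozygous replicate 2 and below it in homozygous replicate 3.

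Genes nearest to these profiles over the 4 samples were found by the same distance among 8556 other named genes. Nearest to Adipoq were Col3a1, a fibrillar collagen gene of the dermis (distance 0.04), Aqp1, a water channel (0.04), Pigh (0.05), Fgfr1 (0.06) and Col5a1, another collagen gene (0.07). Col3a1 read 3981 and 3195 in the heterozygous and 2042.0 and 1891 in the homozygous samples. Nearest to Car3 were Cox7c, a subunit of cytochrome c oxidase (0.15), Tcp11 (0.16), Tnks1bp1 (0.18), Atp4b (0.18) and Bmerb1 (0.19), with Adipoq 35th. Nearest to the mean profile of the 5 members, among 8552 other genes, was Slc27a1, which encodes a fatty acid transport protein, at 61.8 and 46.5 against 26.7 and 14.2 (distance 0.03), followed by Trim41, Icosl, Xrcc4 and Pttg1ip. With 4 samples many profiles lie this close, and these distances are descriptions.

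Over 4 lists of other genes of the adipocyte programme, 47 genes were tested, of which 30 lay below 0 (median log2 difference -0.10) and 6, or 12.8%, had both homozygous readings under the heterozygous ones, close to the 13.4% of all genes. Limma called 0 of the 47, each by its brightest probe set, with 0 at an unadjusted p under 0.05. Other probe sets of a gene could differ from the brightest. Ppargc1a lay at -0.19 ± 0.39 by its brightest probe set. Its other tested probe sets lay at 1.16 ± 0.44 and 0.90 ± 0.39, higher in homozygous samples without overlap. Of 11 lipid droplet and lipolysis genes 6 lay below 0 and 5 above, with a median of -0.05. Plin2, which coats droplets in many cell types, read 595 and 676 in heterozygotes against 1028 and 1044 in homozygotes (0.68 ± 0.45), opposite in sign to Plin4. Cidec, a droplet fusion protein of adipocytes, read 46.3 and 48.2 against 58.2 and 32.7, and Lipe, the hormone-sensitive lipase, read 46.3 and 43.0 against 66.9 and 52.4. The caveolar genes Cav1 (-0.80 ± 0.46) and Cavin1 (-0.55 ± 0.38), whose products are plentiful in adipocyte membranes, had non-overlapping groups with lower homozygous values. Mgll, the monoacylglycerol lipase, ranged from 17.8 to 624 within the heterozygous group alone.

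Of 10 genes of lipid uptake and triglyceride synthesis 8 lay below 0, with a median of -0.17. Besides Slc27a1 (-0.72 ± 0.39), Cd36, the fatty acid translocase, had 3 probe sets that all lay below 0 (-0.82, -0.49 and -0.37), the brightest at 173 and 592 against 133 and 219. Gpd1 (-0.26 ± 0.39), which supplies the glycerol backbone, and Vldlr (-0.30 ± 0.51), a lipoprotein receptor, had overlapping groups. Of 13 adipokine, receptor and hormone response genes 10 lay below 0, with a median of -0.12. Among them Retn, encoding the adipocyte hormone resistin, read 308 and 337 against 215 and 399.7, and Lep, encoding leptin, read 74.9 and 48.3 against 105 and 20.7. Both overlapped between the groups, unlike Adipoq. Npr3, a natriuretic peptide clearance receptor, read 119 and 99.5 against 75.8 and 38.8 (-0.69 ± 0.38), and Mest, a marker of fat expansion, read 44.8 and 53.2 against 77.3 and 85.0 (0.48 ± 0.35). The adiponectin receptor genes differed in sign, with Adipor1 at -0.52 ± 0.53 and overlapping groups, and Adipor2 at 0.33 ± 0.46 without overlap. Aoc3 (-0.56 ± 0.42), an amine oxidase of adipocytes, overlapped, and Insr (-0.29 ± 0.38), the insulin receptor, did not.

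The 13 adipogenic transcription factors had a median of 0.05, with 6 below 0. Cebpa, the partner of PPARγ in mature adipocytes, read 344 and 177 in heterozygotes against 234 and 222 in homozygotes, so the homozygous values lay between the heterozygous ones. Klf5 (-0.90 ± 0.56), Stat5a (-0.52 ± 0.48) and Stat5b (-0.52 ± 0.38) lay below 0, the last without overlap, and Rxra, the dimer partner of PPARγ, lay above 0 without overlap (0.45 ± 0.43). The 6 preadipocyte markers tested all lay below 0, with a median of -0.47, led by Dlk1 (86.3 and 109.9 against 32.2 and 71.5) and Cd34 (54.4 and 70.2 against 8.6 and 55.5). Dlk1 and Cd24a (-0.60 ± 0.46), each by its brightest probe set, were the 2 of 6 without overlap, against 13.4% of all genes. Other tested probe sets gave 0.62 and -0.31 for Cd24a and 0.15 for Dpp4. The sign thus differed between probe sets of Cd24a and of Dpp4. Pdgfra (-0.28 ± 0.48) is also in the fibroblast list below. None passed (0 of 6; 0 at an unadjusted p under 0.05). The 3 brown fat genes tested had a median of 0.14, with Elovl3 and Dio2 above 0 at 0.14 each and overlapping groups. Cox8b read 54.9 and 63.8 against 9.4 and 13.5 (-1.07 ± 0.38, limma unadjusted p = 0.018, adjusted p = 1), while Ucp1, the defining gene of brown adipocytes, stayed outside the test at 8.3 and 4.1 against 21.9 and 9.0.

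Relatives of the members in the same protein families had their own patterns, with a median of -0.13 over 9 tested genes. Fabp5, the epidermal fatty acid binding protein, was very bright, at 16641 and 14928 in heterozygotes against 13532 and 10353 in homozygotes (-0.41 ± 0.25), without overlap, and its second probe set gave 0.23. Car6, a secreted carbonic anhydrase, read 200.2 and 549.6 against 798 and 693 (1.08 ± 0.53), opposite in sign to Car3. Car2, the widespread cytosolic form, read 123 and 169 against 148 and 153, and Car12 read 226 and 201 against 137 and 229. Among the 5 other tested carbonic anhydrases, which include Car9 and Car13, 0 had both homozygous readings under the heterozygous ones. Fabp3 (-0.13), Lipg (0.46, without overlap) and C1qtnf4 (0.11) were the other tested relatives. In the alternative complement pathway, in which the member Cfd acts, Cfi (49.8 and 58.7 against 35.2 and 37.1) and Cd59a (174.5 and 78.6 against 106 and 214) were the genes bright enough to be tested.

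Markers of dermal fibroblasts and the hybridisation controls read lower in homozygous samples too. Of 12 dermal fibroblast markers 10 lay below 0, with a median of -0.51, and 6 (Dpt, Postn, Vim, Col3a1, Col1a1 and Thy1) were lower without overlap, against 13.4% of all genes. At an unadjusted p under 0.05, 3 of the 12 were lower, namely Dpt (-1.76 ± 0.46), Postn (-1.30 ± 0.52) and Vim (-1.19 ± 0.53), against 1.03% of all probe sets, and 0 passed the adjusted test. Their summed intensity was 10427 to 12780.4 in heterozygous and 6424 to 6508 in homozygous samples, with none at 0. For the 5 adipocyte members the sum was 12011 to 13236 against 5591 to 10009. Without homozygous replicate 3, 7 of the 12 fibroblast genes were lower without overlap, against 29.6% of all genes. With homozygous replicate 3 counted as heterozygous, 2 of the 12 were, against 22.8% of all genes. The hybridisation spike-ins BioB, BioC, BioDn and CreX, added to every array after labelling, were read by 9 probe sets. All 9 were lower in both homozygous samples, with an average log2 difference of -1.10. Several of these probe sets read the same spike-in, so they are not 9 separate controls. The array medians ran from 43.5 to 52.6, and Gapdh read by its 3′ probe set over its middle one, a measure of RNA shortening, gave 17.2 and 30.1 for heterozygotes against 15.4 and 14.8 for homozygotes. Actb, read likewise, gave 42.1 and 11.3 in heterozygotes, with 45.9 and 33.7 in homozygotes, and did not repeat the Gapdh order of the groups. The part of these in the lower adipocyte readings was not tested.

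Markers of the other cell types that express members were measured in the same samples. The summed intensity of 8 skeletal muscle markers, a tissue rich in Car3, came to 525 and 1468 for heterozygous replicates 3 and 4 and to 359 and 731 for homozygous replicates 2 and 3, with 6 of 8 below 0 and a median of -0.32. Of these, Myh1 (-1.31 ± 0.66) and Mylpf (-0.57 ± 0.42) overlapped, Tnnc2 (-0.75 ± 0.49) was lower without overlap and Mb (0.55 ± 0.40) higher without overlap. That Myh1 value is from its brightest probe set. Another tested Myh1 probe set read 115.6 and 676.6 against 54.0 and 67.4 (-1.81 ± 0.62), lower without overlap. Ckm, also among the 8, read 12.6 and 78.2 against 12.9 and 78.2. Acta1, which did not pass the filter and is not among the 8, read 8.0 and 93.0 against 4.7 and 12.1. The 7 endothelial markers summed to 541 to 549 against 537 to 593 (4 below 0, median -0.0048), with Cdh5 at 0.43, Egfl7 at 0.25, Kdr at -0.24 and Cldn5 at -0.14. The 5 macrophage markers summed to 557 to 897 against 623 to 1283 (1 below 0, median 0.20), with Adgre1 at -0.35, the only one without overlap, Csf1r at 0.53, C1qb at 0.24 and Mrc1 at 0.20. The 7 sebaceous gland genes summed to 2986 to 4428 against 2826 to 3954 (4 below 0, median -0.20), with Mc5r at 0.85, Scd1 at -0.78, Fa2h at -0.46 and Mgst1 at 0.27. Other tested probe sets gave 0.585 for Scd1, 0.25 and -0.13 for Csf1r, -0.09 for C1qb, and -0.45, 0.19 and 0.57 for Egfl7. The sign thus differed between probe sets of each of these genes. No marker of these lists was at 0, and 0 of the 7, 5 and 7 passed limma's test (0 at an unadjusted p under 0.05). For the 8 muscle genes, each by its brightest probe set, both counts were 0 as well. The part of these cell types in the adipocyte readings was not tested. The follicle itself was well represented, with the keratin genes Krt25, Krt71 and Krt14 at 5601 to 12199, 2248 to 3558 and 1459 to 3793 over the 4 samples. Of the 12 follicle genes tested 6 lay above and 6 below 0 (median 0.08), 4 were higher without overlap, namely Krt35 (1.05 ± 0.46, limma unadjusted p = 0.042, adjusted p = 1), Krt31 (0.81 ± 0.40), Gata3 (0.53 ± 0.40) and Msx2 (0.19 ± 0.41), and 2 lower, Krt71 (-0.34 ± 0.39) and Krt27 (-0.20 ± 0.31). Krt25 (-0.44), Krt14 (-0.43) and Tchh (-0.55) overlapped. Over all 8557 genes, 1180 were higher and 1150 lower in homozygous samples without overlap.

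**Figure D4:**
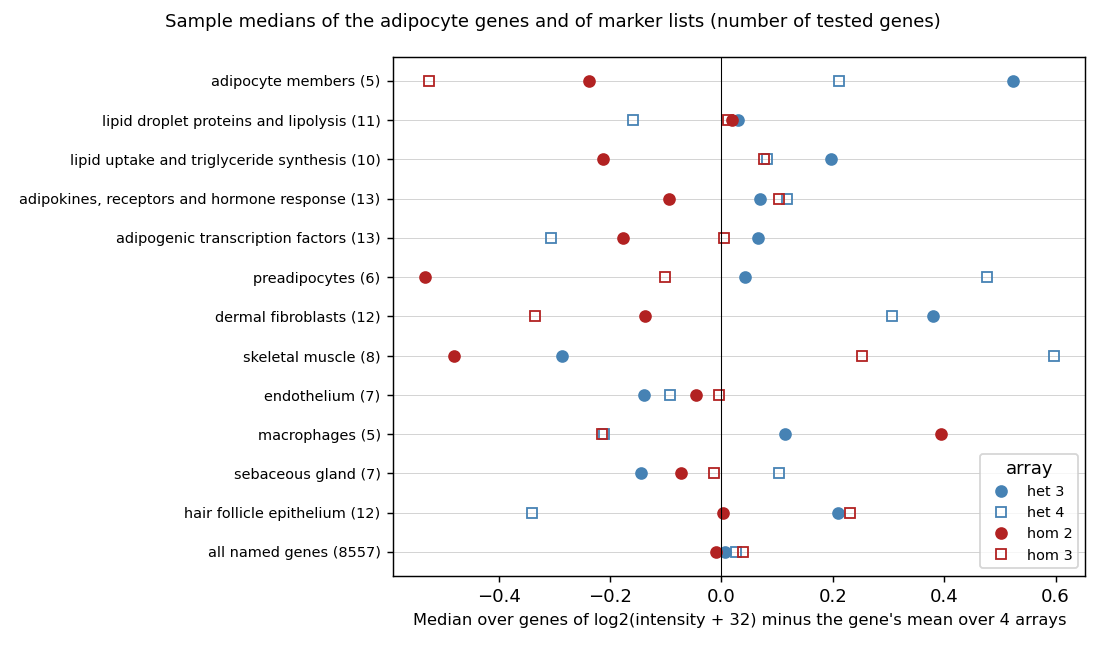
Median over genes of log2(intensity + 32) minus each gene's mean over the 4 arrays (x axis) for the adipocyte members, other adipocyte genes and marker lists (y axis, number of tested genes in brackets), 1 symbol per array. The adipocyte members, the lipid uptake and triglyceride synthesis genes, the preadipocyte and the dermal fibroblast markers show both homozygous arrays left of both heterozygous arrays, whereas the other lists plotted do not. For the lipid uptake and triglyceride synthesis genes the nearest arrays are almost level, with heterozygous replicate 4 at 0.082 and homozygous replicate 3 at 0.077.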

How the data were processed

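The deposited files hold linear intensities, 1 per probe set, from 1-colour Affymetrix arrays, 1 per sample, made from amplified, biotin-labelled RNA per the labels' protocols. The values show that the authors scaled the arrays alike: the mean, trimmed by 2% at either end, was 165.1 on each of the 4. Software and background correction: not given in the sources used here. Arrays have no read depth, and their number limits the precision.

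Intensities were transformed to log2(intensity + 32), which understates differences of dim probe sets. Of 22690 probe sets 64 controls were left out, and the 60% of the other 22626 with the highest mean were kept (13576). Genes were named from the platform annotation (20380 probe sets with 1 symbol, 691 with several, 1555 with none); for a gene with more than 1, the brightest stands for it. The test was limma 3.58.1 under R 4.3.3 (two-sided; lmFit, then eBayes with a trend on intensity; 2 residual and 8.64 prior degrees of freedom), Benjamini-Hochberg adjusted across the 13576 probe sets, at a threshold of 0.05. The fit was tested on simulated data. Every difference is homozygous minus heterozygous.

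Named were all member probe sets and, among the tested genes of each list, those with the smallest unadjusted p (up to 4) or non-overlapping groups. Tested genes of a member's protein family and the 5 nearest profiles to Car3 and to the members' mean were named too. Some list genes below the filter also had non-overlapping groups and are not named. Other list genes were picked after their values were seen: Cidec, Lipe, Retn, Lep, Cebpa, Ucp1, Acta1, Ckm, Krt25, Krt14 and the nearest profiles to Adipoq. The members and lists were chosen with earlier results of these data known. Alternatives were 2 other scalings, other pseudocounts and filters, robust eBayes, the mean of a gene's probe sets, regrouping homozygous replicate 3 by its strain field, and leaving out each sample.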

Additional observations from a re-analysis of the deposited data

How the results depend on the processing

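No paired analysis was possible because the groups share 1 replicate number only. Of 105 values of single member probe sets under the alternatives, 95 kept their direction and 10 reversed, and 0 had an adjusted p under 0.05 (smallest 0.422). With homozygous replicate 3 counted as heterozygous, Lpl 1415904_at turned to 0.47, Fabp4 1417023_a_at to 0.17, 1425809_at to 0.20 and 1451263_a_at to 0.19, and the member median moved from -0.64 to -0.32. With a pseudocount of 1, Fabp4 1425809_at turned to 0.054. Leaving out one sample at a time, the ranges were -1.32 to 0.030 for Lpl 1415904_at, -0.66 to 0.39 for Fabp4 1417023_a_at, -0.52 to 0.46 for Fabp4 1425809_at and -0.86 to -0.47 for the member median. The number of called probe sets ran from 0 to 51, with the 51 found without heterozygous replicate 3, where 1 residual degree of freedom is left and the lone heterozygous sample is assumed to vary like the others; 0 of the 51 were member probe sets. The number of non-overlapping member genes was an alternative added after seeing the data. With one sample left out it ran from 3 to 5 of 5, against 27.6% to 35.3% of all genes. Without heterozygous replicate 3 or 4 it was 4, against 35.3% and 32.8% of all genes. With homozygous replicate 3 counted as heterozygous it was 2, against 22.8%. In the other alternatives, both scalings included, the member median stayed between -0.65 and -0.52. The median 95% interval reached 0.93 (log2) to either side, without correction for multiple testing. At the adjusted threshold 0 of 13576 probe sets were called, although their differences ran from -2.93 to 2.40. The value of 0.93 is therefore not a limit of detection at that threshold.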
